A study of Rattus norvegicus with 17 samples.

Results

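The comparison described here sets CD4+ T cells of rats on a vitamin D supplemented diet (10 IU) against those of rats on a regular diet (2 IU). Its members are the 12 arrays of these groups, 6 of each, out of 17 in the series, chosen by the diet given in the labels. All rats were female Dark Agouti rats, an inbred strain in which immunization with myelin antigens gives experimental autoimmune encephalomyelitis, used to model multiple sclerosis. All were immunized with myelin oligodendrocyte glycoprotein (MOG), so that the regular diet is no unimmunized control. The diets began 5 weeks before immunization, and 7 days after it the inguinal lymph nodes were taken and their CD4+ T cells isolated with a cell sorter. The remaining 5 arrays, of rats deprived of vitamin D (0 IU), share every other condition and are used for the spread of single genes and as further values to set beside the others. The labels call the arrays of a diet biological replicates; the labels do not say to how much feed the IU refer, or how old the rats were beyond being matched in age.

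Vitamin D is converted in liver and kidney to calcitriol, which binds the vitamin D receptor, a nuclear receptor that pairs with a retinoid X receptor on DNA and changes transcription of target genes. Activated T cells can express this receptor, and calcitriol is known to dampen T cell proliferation and inflammatory cytokines in culture. A CD4+ T cell that meets its antigen in a draining lymph node switches on immediate early transcription factors, then enlarges by building ribosomes, mitochondria and chaperones, and enters the cell cycle.

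The sorted cells carried the markers their label names. On the regular arrays the log2 values of Cd3e, a chain of the T cell receptor complex, ran from 10.60 to 10.98, and those of the coreceptor Cd4 from 10.09 to 10.25. Of the markers of the other main T cell class, Cd8b lay between 5.51 and 6.20, near the lowest level tested (a mean of 5.321), and Cd8a between 6.40 and 7.38. Array values of different genes depend on their probes, so these levels are not ranked.

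In total 3661 of 10879 genes tested differed between the diets (33.7%) at a limma adjusted p below 0.05. Of these, 2488 (22.9%) were lower and 1173 (10.8%) higher in the supplemented arrays. The falls were larger: 336 genes fell and 12 rose by more than 1.5-fold, and the median change was -0.35 among the genes that fell and 0.23 among those that rose, on the log2 scale used for every change below. The arrays of the 2 diets did not overlap at all for 1321 genes (12.1%), with the supplemented arrays all below the regular ones in 1079 (9.92%) and all above them in 242 (2.22%). After median centring of the arrays the split was 3343 lower and 312 higher.

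Direction went with level. Among the dimmest 20% of tested genes 18.2% were higher and 1.84% lower in supplemented arrays, with a median change of 0.11. Among the brightest 20% the shares were 3.95% and 53.9%, with a median of -0.21. In 5 equal groups of genes by mean level, parted at 5.99, 6.69, 7.55 and 8.66, the shares lower were 1.84%, 5.01%, 15.6%, 38.0% and 53.9% from dim to bright. The median level of the gene lists below is given so that their counts can be set beside the share of that level group. A list can hold members of several level groups, so this share is no expected value for it.

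**Figure D1:**
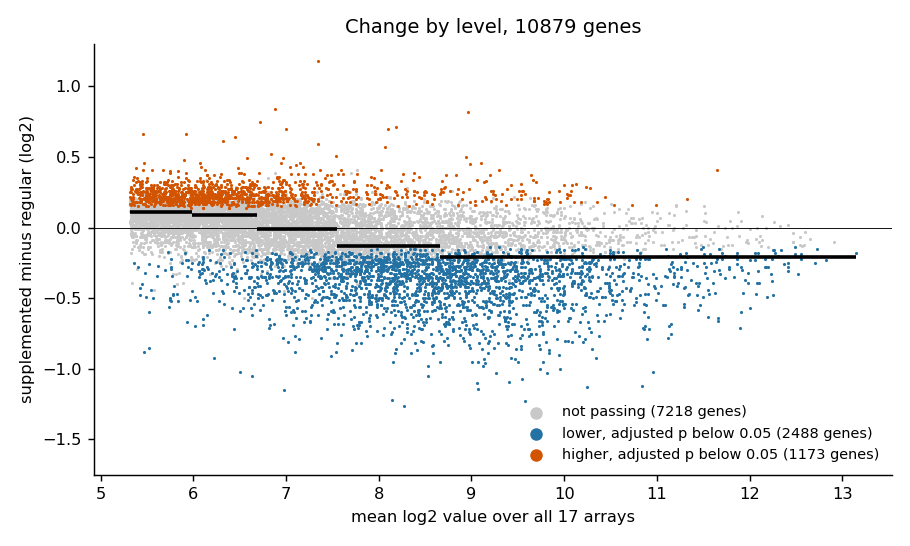
Change (supplemented minus regular, log2) against the mean log2 value over all 17 arrays, with 1 point for each of 10879 genes and black bars for the median change in 5 groups of genes by level. The bars step from 0.11 in the dimmest genes to -0.21 in the brightest.

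The whole distribution of values was narrower on the supplemented arrays. The spread of an array, the standard deviation of its log2 values over 29214 transcript clusters, was 1.908 to 1.972 on the supplemented arrays and 2.001 to 2.063 on the regular ones. The groups did not overlap, and their means differed by -0.083 (two-sided exact permutation test over 924 splits, p = 0.00216, the smallest that 6 against 6 arrays allow). With the spread as a covariate limma called 0 genes lower and 0 higher at the same threshold (0.00% each; 1192 had an unadjusted p below 0.05), so diet and spread cannot be told apart gene by gene. The mean of 15 macrophage and monocyte markers also separated the diets, at 5.98 to 6.03 against 5.81 to 5.92, and with that mean as a covariate 449 genes were lower (4.13%) and 39 higher (0.358%). Supplemented replicates 2 and 5 had the narrowest spread; without them 1736 genes were lower and 435 higher. The part of the spread in each result below was not tested, and less RNA per cell cannot be told apart from fewer cells of a type.

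**Figure D2:**
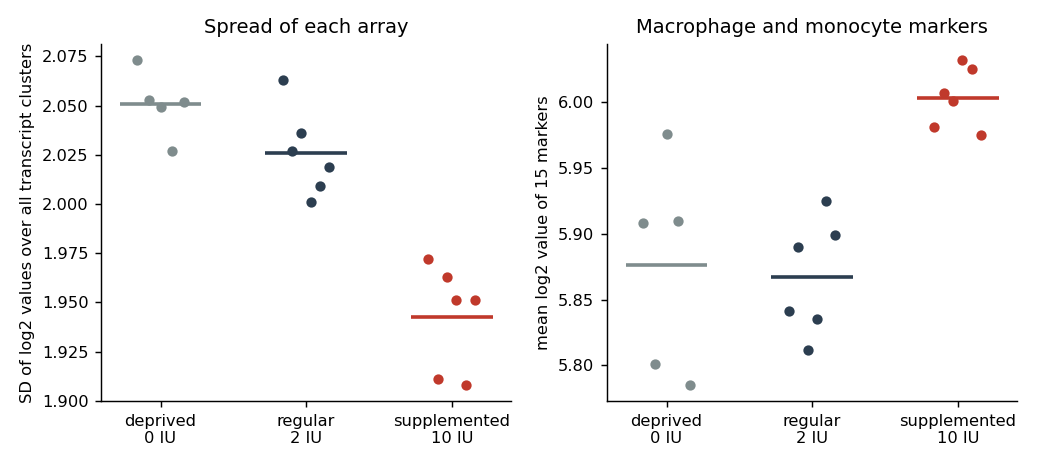
Spread of each array (left, standard deviation of log2 values) and mean log2 value of 15 macrophage and monocyte markers (right), 1 point per array with a line at the mean of each diet. Supplemented arrays lie below all others in spread, and above all regular arrays in the marker mean.

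Among bright genes, the share that fell went with the length of the gene. Of the tested genes, 10859 have a genomic span in the RefSeq annotation of GRCr8. Over all of them, in 5 groups from shortest to longest, there was no such order: 22.1%, 24.7%, 25.5%, 24.8% and 17.1% were lower, with medians of 0.05, 0.00, -0.02, -0.03 and 0.01, and the shortest genes had the most rises (303 of 2172). Within the brightest 20%, which holds 2170 such genes, the 434 genes with the shortest span (median 4.10 kb) were lower in 73.0% and had a median change of -0.33. The shares fell step by step with span, to 61.8%, 57.8%, 45.9% and then 30.9% in the 434 genes with the longest span (median 106 kb), where the median change was -0.07. The share that rose was 2.76% in the shortest genes and 8.29% in the longest. The median level of these 5 groups lay between 9.35 and 9.67. The order of the medians was the same after quantile normalization, from -0.17 to 0.10, and with the spread as a covariate, from -0.09 to 0.10. This pattern of the brightest genes was noticed in these data, and its cause was not tested.

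The largest fall was in Jun, which encodes a subunit of the AP-1 transcription factor that responds within minutes to T cell stimulation. Its log2 values were 6.32, 7.26 and 8.63 (lowest, median, highest) on the supplemented arrays and 8.13, 8.58 and 8.90 on the regular ones. The change was -1.26 (SE 0.28, n = 6 and 6, limma adjusted p = 0.00166), and 1 supplemented array reached the regular range. Top2a, the topoisomerase that untangles chromosomes before division, had values of 6.75, 7.08 and 8.15 against 8.06, 8.55 and 9.21, a change of -1.22 (SE 0.28). Tpx2, which nucleates spindle microtubules, lay entirely below the regular arrays, at 5.66 to 6.79 against 6.92 to 7.88.

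Several of the other large falls were tighter than these. Ndufa9, a subunit of respiratory complex I, had supplemented values of 7.87, 8.27 and 8.80 and regular values of 9.25, 9.44 and 9.65, a change of -1.14 (SE 0.13, limma adjusted p = 2.25e-06). The spliceosome core protein gene Snrpd2 lay at 9.63 to 10.41 against 11.16 to 11.36, a change of -1.12 (SE 0.11). Aimp1, a scaffold of the multi-synthetase complex that charges tRNAs, lay at 8.21 to 8.89 against 9.52 to 9.73. Cdk4, the kinase that drives cells out of G1, lay at 7.91 to 9.16 against 9.55 to 10.07. In these 4 genes no supplemented array reached the lowest regular one. Ttc1, Cetn2 (a centriole protein), Dbi (an acyl-CoA binding protein), Yeats4 (a reader of histone acylation), Fam162a, Tmsb15b2 and Anp32e (a histone chaperone) fell by 1.02 to 1.13, also with no overlap. Ccdc107 fell by 1.23, but its supplemented arrays ran from 7.25 to 9.90 and overlapped the regular ones.

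The 15 largest rises were smaller. Prss3bl1, a trypsin-like protease gene, was the only gene called more than 2-fold higher, at 7.67, 8.01 and 8.20 on the supplemented arrays against 6.26, 6.80 and 7.23, a change of 1.18 (SE 0.14, limma adjusted p = 4.39e-06). A second trypsin-like gene, Prss59, rose by 0.75 (SE 0.15). Kctd4 rose by 0.84 (SE 0.14), from 6.23 to 6.66 on the regular arrays to 6.70 to 7.79, and N5 by 0.82 (SE 0.10), from 8.18 to 8.90 up to 9.19 to 9.56. In both the diets did not overlap. Among the others, Ube2w (a ubiquitin conjugating enzyme) rose by 0.71, Dppa3 (a germ cell and early embryo factor) by 0.70, Cr2 (complement receptor 2, found on B cells) by 0.66, the class I related gene RT1-M6-1 by 0.64 and the potassium channel gene Kcnj13 by 0.61. LOC680428, the last of the 15, rose by 0.51, with supplemented arrays from 7.12 to 8.36 that overlapped the regular ones, and did not pass without supplemented replicate 2 (0.40, limma adjusted p = 0.0521) or 5 (0.41, adjusted p = 0.0531). On the deprived arrays, which are set against the same regular arrays, N5 (0.50) and Kcnj13 (0.51) were higher as well. Changes there were also above 0 for Prss3bl1 (0.51), Kctd4 (0.46), Prss59 (0.30) and Dppa3 (0.28). These did not pass (limma adjusted p from 0.0861 to 0.372). Those of Ube2w (-0.05), Cr2 (-0.05) and RT1-M6-1 (-0.10) were below 0.

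**Figure D3:**
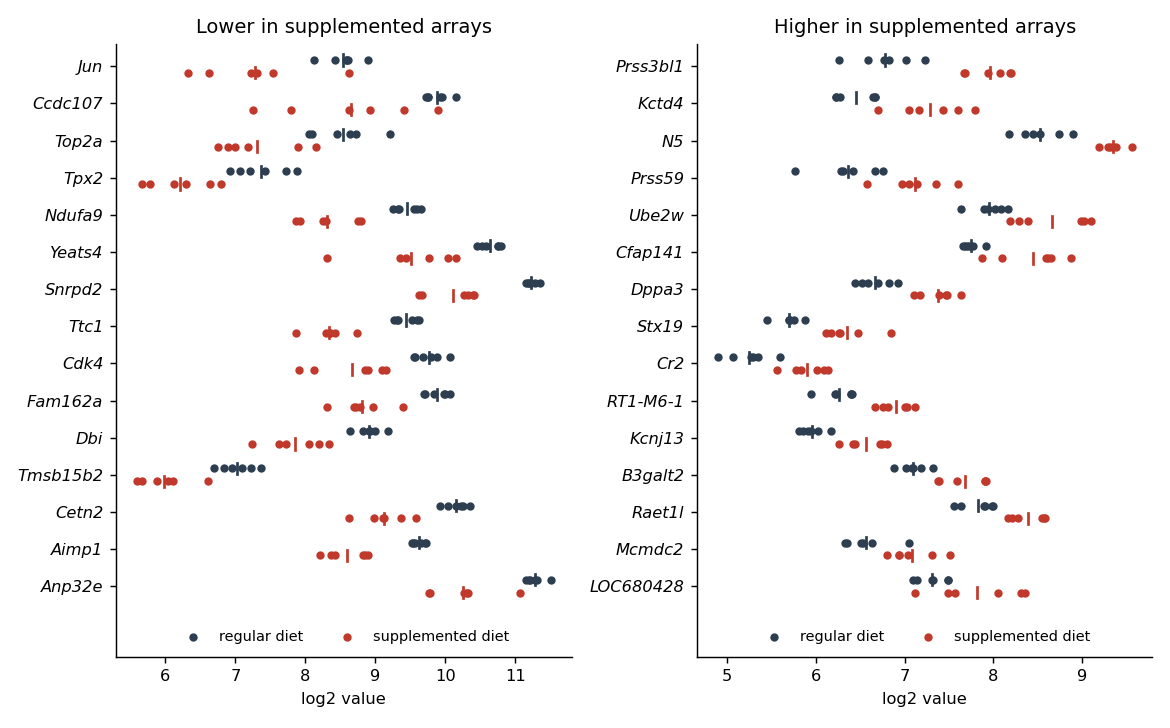
Log2 values of every supplemented (red) and regular (dark) array for the 15 genes that fell most and the 15 that rose most, with a tick at each mean. Most falls separate the diets completely, whereas Jun, Ccdc107 and Top2a have supplemented arrays inside the regular range.

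Many genes that drive cell division were lower in supplemented T cells. Of 42 tested genes of mitosis and chromosome segregation 25 fell and 0 rose, with a median change of -0.37; of 55 genes of DNA replication and G1/S 25 fell and 0 rose (median -0.21). Stmn1, which destabilizes microtubules, lay at 8.90 to 9.59 against 9.76 to 10.16 on the regular arrays, a change of -0.75 (SE 0.11). Cenpk, a kinetochore protein, changed by -1.02 (SE 0.21). Pcna, the sliding clamp of DNA polymerase, changed by -0.71 (SE 0.11) and Mcm7, a subunit of the replicative helicase, by -0.63 (SE 0.09). Myc, a master regulator of cell growth, fell by 0.26 (SE 0.07), with supplemented values of 7.26 to 7.58 against 7.58 to 7.92. The mitosis list had a median level of 6.55 and the replication list of 7.38, and fell in 59.5% and 45.5% of members, where their level groups fell in 5.01% and 15.6%. The replication and mitosis lists had medians of -0.19 and -0.41 after quantile normalization and of -0.05 and -0.22 with the spread covariate.

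Histone genes fell in 16 of 27 tested members (59.3%) and rose in 1, at a median level of 7.17, where 15.6% of all genes fell. The linker histone gene H1f4 had supplemented values of 7.44, 7.82 and 8.09 and regular values of 8.36, 8.58 and 8.73, a change of -0.75 (SE 0.11, limma adjusted p = 1.83e-05). H4c14, a core histone gene, lay at 6.21 to 6.84 against 7.10 to 7.30, and Hist1h2an at 8.90 to 9.32 against 9.48 to 9.93. All 3 separated the diets. On the deprived arrays H1f4 was lower than on the regular arrays too, by -0.54 (SE 0.11, limma adjusted p = 0.0181), and the regular arrays held the highest values of the 3 diets. Among genes that modify chromatin 18 of 52 fell (34.6%, median level 8.18, where 38.0% of all genes fell) and 2 rose. After quantile normalization 8 were lower and 8 higher, so this count depends on the scaling. Those that fell were led by the arginine methyltransferase Prmt1 (-0.67), the deacetylase Hdac1 (-0.50) and the maintenance DNA methyltransferase Dnmt1 (-0.32).

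Mitochondrial energy genes were lower in most members of each list but complex IV. Respiratory complex I, which passes electrons from NADH to ubiquinone, had 30 of 37 members lower, 0 higher and a median of -0.38. Complex II had 4 of 6 lower, complex III with cytochrome c 10 of 13, ATP synthase 12 of 16 and the TCA cycle with pyruvate dehydrogenase 15 of 17, and none of these lists had a member higher. Complex IV had 10 of 20 lower with a median of -0.18, which was -0.02 after quantile normalization. Ndufa2 of complex I lay at 8.08 to 8.49 against 9.01 to 9.18, a change of -0.83 (SE 0.07, limma adjusted p = 5.07e-07), and Uqcrb of complex III at 9.20 to 9.49 against 9.78 to 10.09. The catalytic ATP synthase subunit Atp5f1b changed by -0.74 (SE 0.08), the TCA enzyme subunit Suclg2 by -0.69 (SE 0.10) and the complex II subunit Sdhd by -0.57 (SE 0.08). Slc25a5, the carrier that swaps ADP for ATP across the inner membrane, changed by -0.66 (SE 0.07). The protein import machinery of mitochondria had 12 of 21 lower and 1 higher, with the outer membrane channel component Tomm7 at -0.90 (SE 0.12). Mitochondrial ribosomal proteins had 45 of 68 lower and 0 higher, with Mrps23 at -0.80 (SE 0.09). The median levels of these lists lay between 7.79 and 9.72, where 38.0% and 53.9% of all genes fell; complex IV, at 9.54 and with 10 of 20 lower, did not exceed its level group. After quantile normalization 5 members of complex III with cytochrome c and 6 of complex IV were lower.

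Genes of carbon and nucleotide metabolism were also called lower more often than higher. Glycolysis had 13 of 23 genes lower and 1 higher. Pgk1, which makes ATP in glycolysis, lay at 8.43, 8.63 and 9.33 against 9.52, 9.62 and 9.88, a change of -0.92 (SE 0.12). Nucleotide synthesis had 17 of 23 lower and 0 higher (median -0.38), among them Nme1, a nucleoside diphosphate kinase (-0.89, SE 0.12), Prps1, which makes the ribose phosphate donor (-0.84, SE 0.12), and the purine synthesis enzyme Paics (-0.60, SE 0.08). Serine and one-carbon metabolism had 7 of 14 lower, with the mitochondrial folate enzyme Mthfd2 at -0.70 (SE 0.11). Polyamine synthesis had 6 of 10 lower, with the rate-limiting enzyme Odc1 at -0.83 (SE 0.17). Cholesterol synthesis had 10 of 20 lower, with Fdps at -0.83 (SE 0.10), and fatty acid synthesis 2 of 11 (18.2%, median level 6.30). None of these lists but glycolysis had a member higher. Apart from fatty acid synthesis their median levels lay between 7.57 and 8.57, where 38.0% of all genes fell. After quantile normalization 4 genes of serine and one-carbon metabolism, 3 of polyamine synthesis, 4 of cholesterol synthesis and 1 of fatty acid synthesis were lower.

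Genes of protein production and quality control were also lower in most members. The CCT chaperonin, a ring that folds actin and tubulin, had 7 of 8 subunits lower with a median of -0.47. Cct5 lay at 9.98, 10.43 and 10.66 against 11.00, 11.07 and 11.18, a change of -0.72 (SE 0.08), and Cct7 changed by -0.81 (SE 0.12). Proteasome subunits and assembly factors had 39 of 46 lower and 0 higher (median -0.40). Psma4, of the barrel's outer ring, lay at 8.57 to 9.41 against 9.70 to 9.98, a change of -0.86 (SE 0.10). Psmd6, of the regulatory cap, changed by -0.55 (SE 0.07) and the cap ATPase Psmc3 by -0.48 (SE 0.06). In all 3 the diets did not overlap. Cytosolic ribosomal proteins had 60 of 72 lower and 0 higher (median -0.26), with Rpl6 at -0.68 (SE 0.07). Their count depended on the scaling, with 29 lower and 2 higher after quantile normalization (median -0.12) and 23 lower and 4 higher after cyclic loess (median -0.05). The median levels of the 3 lists were 10.06, 9.06 and 12.07, where 53.9% of all genes fell.

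Genes that build and supply ribosomes were called lower as well. Ribosome biogenesis had 31 of 39 genes lower and 0 higher (median -0.36). Nhp2, a protein of the pseudouridylation complex, lay at 8.77 to 9.13 against 9.43 to 9.68, a change of -0.68 (SE 0.07, limma adjusted p = 1.14e-06), Nop16 changed by -0.73 (SE 0.08) and the rRNA methyltransferase Fbl by -0.66 (SE 0.08). Initiation factors had 32 of 44 lower and 0 higher, with the eIF3 subunit Eif3d at -0.82 (SE 0.11). Elongation and release factors had 9 of 13 lower and 1 higher, with Eef1b2 at -0.78 (SE 0.09). The aminoacyl-tRNA synthetases had 17 of 32 lower and 1 higher, among them Tars1 (-0.67, SE 0.09) and Sars1 (-0.66, SE 0.09). Splicing and RNA binding proteins had 35 of 72 lower and 2 higher, with Snrpd1 at -0.81 (SE 0.09). After quantile normalization that list had 20 lower and 15 higher, so its one-sided count depends on the scaling. At a median level of 9.52 its share lower (48.6%) was under the 53.9% of its level group. The synthetases had a median level of 8.13 and the other lists here of 8.87 to 9.42. After cyclic loess 5 elongation and release factors were lower.

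In the secretory pathway 18 of 27 endoplasmic reticulum chaperones fell and 1 rose. Ppib, a prolyl isomerase, lay at 8.52, 8.96 and 9.28 against 9.65, 9.82 and 9.92, a change of -0.86 (SE 0.10). Calr, a calcium-binding chaperone, changed by -0.77 (SE 0.10). Of the translocon, signal peptidase and glycosyl transfer genes 17 of 27 fell and 0 rose, with the glycosyl transferase subunit Rpn1 at -0.75 (SE 0.09) and the channel subunit Sec61b at -0.63 (SE 0.08). The median levels were 8.79 and 9.21, where 53.9% of all genes fell, and 11 genes of the second list were lower after cyclic loess.

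Cytosolic and mitochondrial heat shock chaperones fell in 22 of 30 tested members and rose in 0 (median -0.38, median level 9.20). After quantile normalization 14 were lower and 3 higher, and after cyclic loess 11 and 3. St13, a cochaperone of HSP70, lay at 9.42, 9.66 and 10.10 against 10.50, 10.56 and 10.79, a change of -0.92 (SE 0.09, limma adjusted p = 1.13e-06). Some members of this list had a different order over the 3 diets, and 2 are given here, chosen after their values were seen. Dnaja1, an HSP40 cochaperone, was 10.52 to 11.01 on the supplemented arrays, 10.95 to 11.17 on the regular ones and 11.54 to 11.66 on the deprived ones. Its change was -0.34 (SE 0.07, limma adjusted p = 0.000921) with supplementation and 0.55 (SE 0.07, adjusted p = 0.000411) with deprivation. Dnajb1, another HSP40, was 7.01 to 8.24, 8.09 to 8.50 and 8.59 to 9.57 in the same order, with changes of -0.56 (SE 0.17, adjusted p = 0.0149) and 0.89 (SE 0.18, adjusted p = 0.0167). Both changes are taken from the same 6 regular arrays. Supplemented changes after quantile normalization were -0.15 for Dnaja1, which did not pass, and -0.50 for Dnajb1. Over all genes 162 (1.49%) were higher and 20 (0.184%) lower with deprivation.

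**Figure D4:**
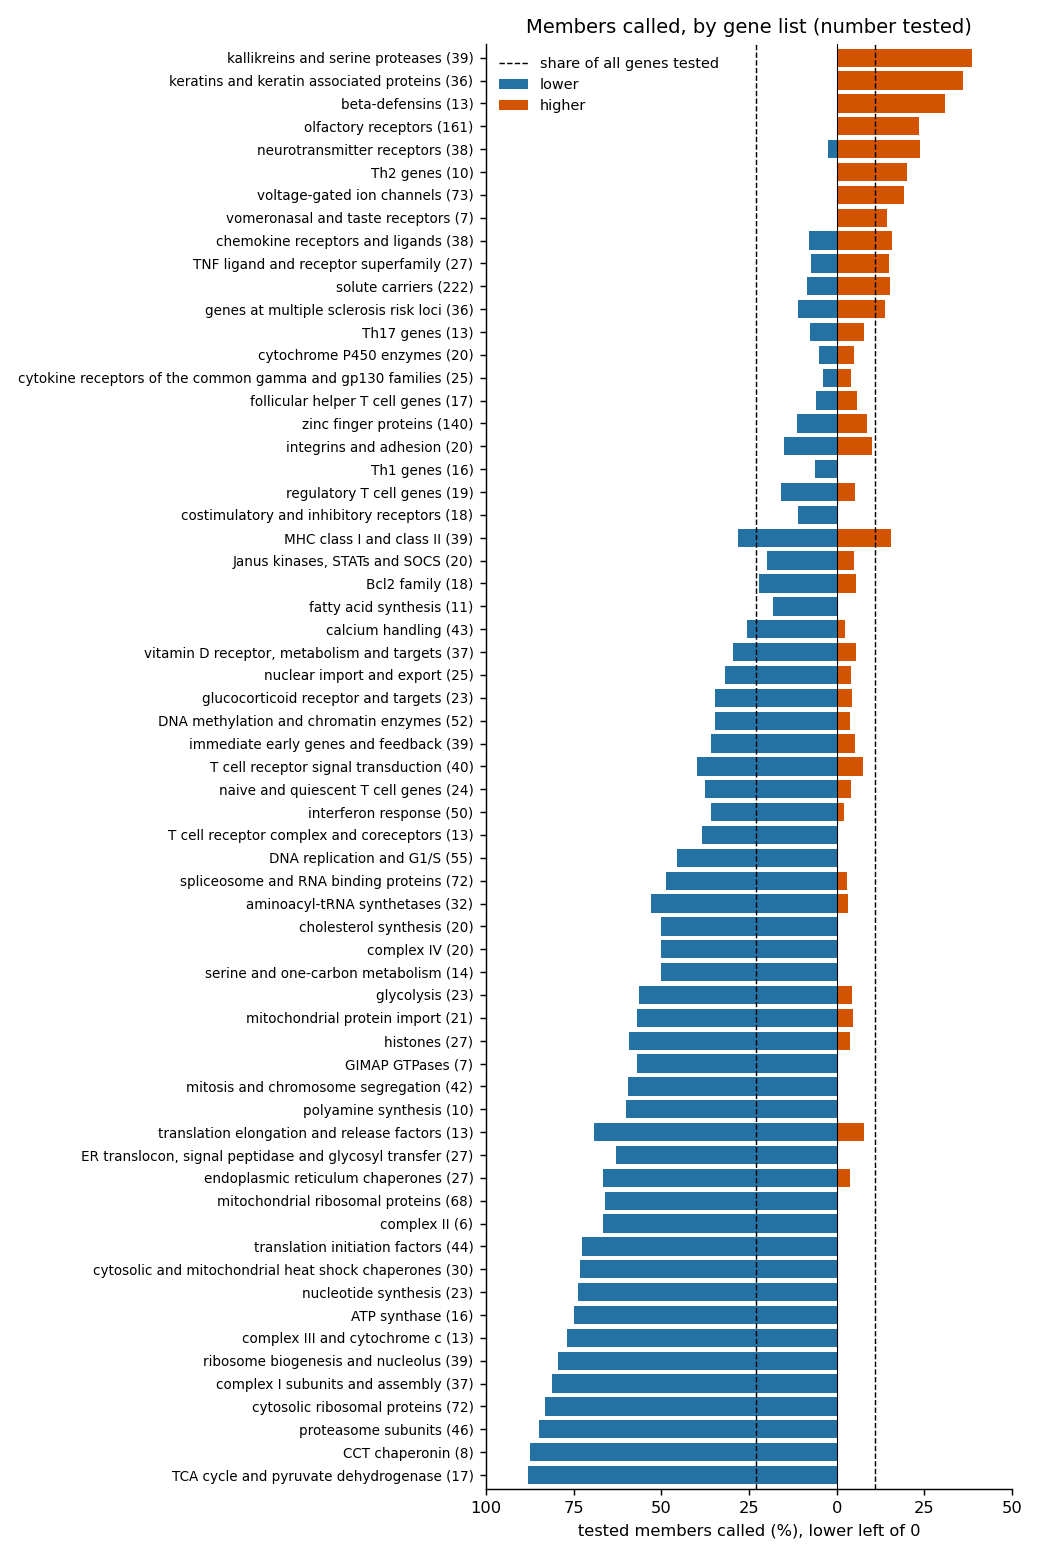
Share of tested members called lower (left of 0) or higher (right of 0) in supplemented arrays, for 63 gene lists with at least 6 tested members, whose number is in brackets; lists of cell type markers are not drawn. Dashed lines mark the shares over all genes tested, 22.9% lower and 10.8% higher; of the lists drawn, TCA cycle, CCT chaperonin and proteasome genes reach furthest to the left and serine proteases furthest to the right.

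T cell receptor genes fell in a smaller share of members. The receptor complex and coreceptors had 5 of 13 members lower (38.5%, median level 10.21) and 0 higher, a share under the 53.9% of its level group. Cd4 had supplemented values of 9.01, 9.71 and 9.88 and regular values of 10.09, 10.14 and 10.25, a change of -0.59 (SE 0.11, limma adjusted p = 0.000301), with no overlap. Cd3d changed by -0.35 (SE 0.06) and Cd247, the zeta chain, by -0.34 (SE 0.07), also without overlap. With the spread covariate the fitted change of Cd4 was 0.00 and that of Lck, the kinase bound to it, -0.03, against -0.43 (SE 0.07) without. Receptor signal transduction had 16 of 40 lower (40.0%, median level 9.08, also under its level group) and 3 higher, but 5 and 5 after quantile normalization, when its median turned from -0.12 to 0.02.

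Of 39 immediate early and feedback genes 14 fell (35.9%, median level 7.27, where 15.6% of all genes fell) and 2 rose. Besides Jun, Fos, its AP-1 partner, lay at 5.91, 6.48 and 7.41 against 7.07, 7.29 and 7.77, a change of -0.77 (SE 0.21, limma adjusted p = 0.00779). Dusp1, a phosphatase that ends MAP kinase signalling, changed by -0.91 (SE 0.19) and Rgs1, which damps chemokine receptors, by -0.82 (SE 0.20). Egr1 changed by -0.30 (SE 0.09), and did not pass without supplemented replicate 5 (limma adjusted p = 0.0508), without regular replicate 1 (0.0514) or after quantile normalization (-0.13). Without either of these arrays 9 genes of the list were lower. In Jun, Fos, Dusp1, Rgs1 and Egr1 at least 1 supplemented array reached the regular range. Cd69, an early activation antigen, had values of 9.53 to 10.01 against 9.83 to 10.14 and did not pass (-0.19, limma adjusted p = 0.0926), but passed without supplemented replicate 4 (-0.24, adjusted p = 0.0403).

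Costimulatory and inhibitory receptors had 2 of 18 lower (11.1%, median level 8.47) and 0 higher, under the share over all genes and under that of their level group (38.0%). They were Cd40lg, with which helper T cells activate B cells, at 8.71 to 9.56 against 9.74 to 10.02 (-0.75, SE 0.11), and Ctla4, an inhibitory receptor, at 6.44 to 7.68 against 7.25 to 7.94 (-0.53, SE 0.20, limma adjusted p = 0.0423). The diets separated completely for Cd40lg and overlapped for Ctla4, which did not pass without any 1 of 8 arrays (supplemented 1, 4, 5 or 6, regular 1, 2, 4 or 5; adjusted p up to 0.115, with a change of -0.42, without supplemented replicate 5). GIMAP GTPases, which keep resting lymphocytes alive, had 4 of 7 lower (57.1%, median level 9.11), near the 53.9% of their level group. Gimap1 changed by -0.35 (SE 0.07), and after quantile normalization 0 of 7 were lower. Of genes of naive and quiescent T cells 9 of 24 fell (37.5%, median level 9.78, under its level group) and 1 rose, and after quantile normalization 5 were lower and 3 higher. S1pr1, the receptor by which T cells leave lymph nodes, changed by -0.45 (SE 0.09) and Tob1, a brake on proliferation, by -0.50 (SE 0.09). Ccr7 (-0.06, 95% interval -0.24 to 0.12) and Il7r (0.02, 95% interval -0.10 to 0.15) did not pass.

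Genes that define helper T cell lineages fell in smaller shares than the 22.9% over all genes. These shares were 6.25% of Th1, 0 of 10 Th2, 7.69% of Th17 and 15.8% of regulatory T cell genes. The share that rose was under the 10.8% over all genes in each list but Th2, where 2 of 10 rose. In the level group of the Th1 (7.42) and Th17 (7.02) lists 15.6% of all genes fell and 10.1% rose. In that of the regulatory T cell list (7.57) 38.0% fell and 4.32% rose. This list lay just above the boundary at 7.55, and in the level group below that 15.6% fell. The Th2 list (6.69) lay at a boundary between level groups. Of Th1 genes 1 of 16 fell, the receptor chain Ifngr1 (-0.32, SE 0.07), and 0 rose. Tbx21, the Th1 master factor, changed by 0.13 (95% interval -0.03 to 0.29) and Ifng by -0.09 (-0.35 to 0.17), neither passing. Th2 genes had 0 of 10 lower and 2 higher, namely Il13 and Il9. Il13 had supplemented values of 6.37, 6.66 and 7.04 and regular values of 6.27, 6.40 and 6.51, a change of 0.25 (SE 0.09, limma adjusted p = 0.0361), and on the deprived arrays lay at 5.87 to 6.16, below the regular arrays by -0.40 (adjusted p = 0.0335). Both comparisons use the same regular arrays, and with the spread covariate the change with supplementation was -0.10. Il9 rose by 0.19 (SE 0.07). Neither cytokine passed after quantile normalization (0.21 and 0.12). Il13 did not pass without any 1 of 8 arrays (supplemented 2, 3, 5 or 6, regular 1, 2, 3 or 5) and Il9 without any 1 of 9 (supplemented 2, 4, 5 or 6, regular 1, 2, 3, 5 or 6), with adjusted p up to 0.104 and 0.118 and changes of 0.17 and 0.14, both without supplemented replicate 5. The Th2 master factor Gata3 changed by -0.11 (-0.30 to 0.07). Th17 genes had 1 of 13 lower, Stat3 (-0.42, SE 0.10), and 1 higher, the chemokine gene Ccl20 (0.18, SE 0.06), and Il17a changed by -0.02 (-0.24 to 0.20). Of regulatory T cell genes 3 of 19 fell, among them Lgals1 (-0.67, SE 0.11), and 1 rose, Gpr83 (0.21, SE 0.07). Ccl20 did not pass without supplemented replicate 4 or regular replicate 1 or 5 (adjusted p up to 0.0593, at 0.17), nor Gpr83 without supplemented replicate 3 or 5 or regular replicate 1 or 4 (up to 0.0855, at 0.17), nor either after quantile normalization (0.09 and 0.12). Foxp3 changed by -0.08 (-0.27 to 0.11) and Il2ra by 0.06 (-0.10 to 0.23). Il4, Il10 and Csf2 were too dim to be tested, and Il2 and Tnf did not pass; Tnf passed without supplemented replicate 2 (0.35, limma adjusted p = 0.0153).

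**Figure D5:**
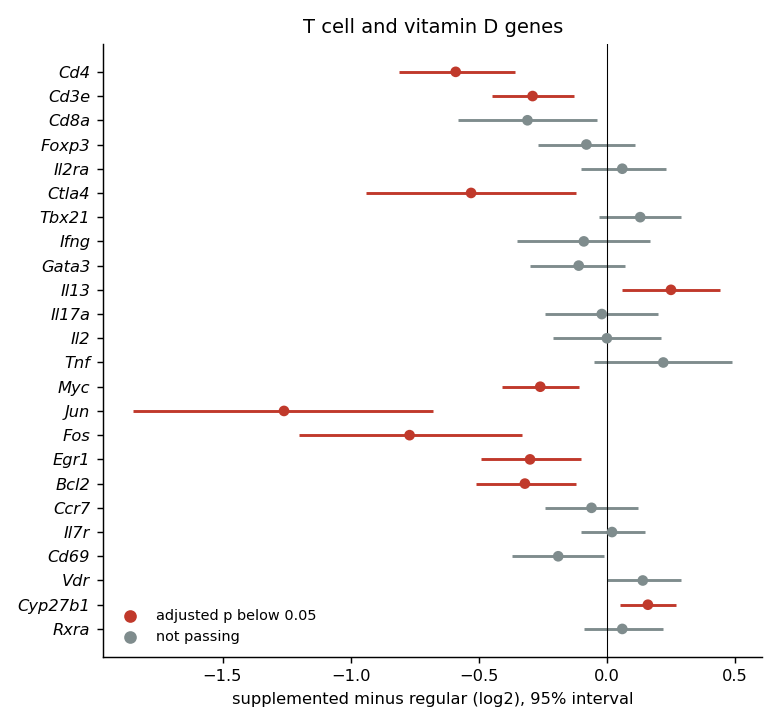
Change (supplemented minus regular, log2) with its 95% interval for T cell, cytokine, immediate early and vitamin D genes, red where the limma adjusted p was below 0.05. Drawn are the tested genes of the fixed T cell and vitamin D set; of these Jun and Fos lie furthest to the left, and the intervals of Foxp3, Tbx21, Ifng, Gata3, Il17a and Il2 include 0.

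Of the Janus kinase, STAT and SOCS genes 4 of 20 fell (near the 22.9% over all genes) and 1 rose, or 3 and 3 after quantile normalization, with Stat5b at -0.45 (SE 0.08) and Jak1 at -0.31 (SE 0.06); after quantile normalization Jak1 did not pass (-0.13). Chemokines and their receptors had 3 of 38 lower (7.89%) and 6 higher (15.8%), or 3 higher without regular replicate 2. Their median level was 6.24, where 5.01% of all genes fell and 17.4% rose. After quantile normalization or cyclic loess 0 members of the list were higher and 2 lower. The TNF superfamily had 2 of 27 lower (7.41%) and 4 higher (14.8%), at a median level of 7.17, where 15.6% of all genes fell and 10.1% rose. Tnfsf12, a ligand of the TNF family, lay at 7.39 to 7.71 against 6.95 to 7.28, with no overlap (0.38, SE 0.08, limma adjusted p = 0.000733), whereas the death ligand Tnfsf10 changed by -0.45 (SE 0.13). In the Bcl2 family 4 of 18 fell (22.2%) and 1 rose, and 2 fell after quantile normalization. The share over all genes was 22.9%, and 15.6% in the level group of the list's median level, 6.82. Bcl2a1, which protects activated lymphocytes, changed by -0.58 (SE 0.11) and Bcl2 by -0.32 (SE 0.09). Bcl2 did not pass after quantile normalization (-0.13). Interferon response genes had 18 of 50 lower (36.0%, median level 8.46, where 38.0% of all genes fell) and 1 higher, or 11 and 3 after quantile normalization, with Nmi at 9.28 to 9.97 against 10.26 to 10.46 (-0.74, SE 0.09). Glucocorticoid receptor targets had 8 of 23 lower (34.8%) and 1 higher, with Fkbp5 at -0.55 (SE 0.11). Their median level was 8.03, where 38.0% of all genes fell. The list had 5 lower without supplemented replicate 2 or 5, or without regular replicate 1, 2 or 3. After quantile normalization it had 5 lower and 5 higher. MHC genes had 11 of 39 lower (28.2%) and 6 higher (15.4%), or 7 and 5 after quantile normalization. Their median level was 7.42, where 15.6% of all genes fell and 10.1% rose. The class I genes RT1-S3 (-0.75, SE 0.14) and RT1-CE5 (-0.46, SE 0.08) were among those that fell. Rat class I genes are near-identical copies, so signal may be shared between them.

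Genes of the vitamin D system itself were mostly dim. Vdr lay at 5.33, 5.40 and 5.78 on the supplemented arrays and 5.18, 5.30 and 5.42 on the regular ones, overlapping, a change of 0.14 (95% interval 0.00 to 0.29, limma adjusted p = 0.12). Cyp27b1, which makes calcitriol, rose by 0.16 (SE 0.05, adjusted p = 0.0235), from 5.69 to 5.88 up to 5.87 to 6.04. It did not pass without supplemented replicate 2 (adjusted p = 0.0518) or regular replicate 1 (0.0631, at 0.13), or after quantile normalization (0.06). Rxra changed by 0.06 (-0.09 to 0.22). Cyp24a1, which degrades calcitriol and is its classic target gene, lay below the level filter, at 4.60 to 4.93 against 4.60 to 4.76. The receptor, its metabolism and its known targets had 37 tested genes. Of these 11 fell (29.7%) and 2 rose (5.41%), with a median change of 0.02. The shares over all genes were 22.9% and 10.8%. In the level group of the list's median level, 6.61, the shares were 5.01% lower and 17.4% higher. After quantile normalization 6 of the list were lower, and 7 were lower without supplemented replicate 5, regular replicate 1 or regular replicate 2. Pdia3, a disulfide isomerase also described as a membrane receptor of calcitriol, changed by -0.47 (SE 0.07) and Rassf5 by -0.40 (SE 0.07). Calcium handling genes had 11 of 43 lower (25.6%) and 1 higher (2.33%). Their median level was 7.51, where 15.6% of all genes fell and 10.1% rose. The calmodulin genes Calm3 (-0.78, SE 0.12) and Calm2 (-0.54, SE 0.09) were among those that fell. Genes at multiple sclerosis risk loci had 4 of 36 lower (11.1%) and 5 higher (13.9%), or 3 higher without supplemented replicate 2. Their median level was 7.66, where 38.0% of all genes fell and 4.32% rose.

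Markers of other lymph node cells were mostly dim, and more of them rose than fell. The B cell and macrophage lists had median levels of 6.05 and 6.27, where 17.4% of all genes rose and 5.01% fell. Of 6 tested B cell markers 4 rose and 0 fell, among them Cr2, at 5.56 to 6.13 against 4.89 to 5.59, Fcrla (0.40, SE 0.09) and Ebf1 (0.33, SE 0.11), which did not pass without supplemented replicate 6 (limma adjusted p = 0.058) or regular replicate 3 (0.0654, at 0.24). Cd22, another marker of the list, changed by -0.49 and did not pass (limma adjusted p = 0.0704). After cyclic loess 2 of the 6 were higher. The array mean of these markers was 6.22 to 6.70 on the supplemented arrays and 5.99 to 6.49 on the regular ones. Of 11 tested macrophage and monocyte markers 4 rose (36.4%) and 0 fell. Those that rose included Tyrobp (0.32, SE 0.08), Mrc1 (0.27, SE 0.07) and the myeloid transcription factor Spi1 (0.25, SE 0.07). Of these 3 Tyrobp alone passed after quantile normalization. Their array mean was 6.34 to 6.43 against 6.13 to 6.28. Neutrophil (3 tested) and dendritic cell markers (4 tested) had 0 called. Plasma cell (3 tested), NK cell (4 tested) and red blood cell markers (2 tested) each had 1 higher and 0 lower. Platelet markers (3 tested) had 2 higher and 0 lower, and stromal and endothelial markers (9 tested) 1 higher and 1 lower. CD8 T cell markers (2 tested) had 1 lower and 0 higher. On arrays dim probes carry background signal, so no marker reads 0. The macrophage marker mean was higher on every supplemented array than on any regular one, although 4 of its 11 tested members passed and 1 after quantile normalization. The part of other cells in the falls of T cell genes was not tested.

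Most gene families tested that are best known from other tissues were called higher more often than lower. Of the 1105 olfactory receptor genes on the array 161 passed the level filter, and of these 38 rose (23.6%) and 0 fell, with a median of 0.14. Serine proteases had 15 of 39 higher (38.5%), keratins 13 of 36 (36.1%) and beta-defensins 4 of 13 (30.8%). Neurotransmitter receptors had 9 of 38 higher (23.7%) and 1 lower. Voltage-gated ion channels had 14 of 73 higher (19.2%, median level 5.94), near the 18.2% of their level group. Cytochrome P450 enzymes had 1 of 20 higher and 1 lower (5.00% each), and vomeronasal and taste receptors 1 of 7 higher. No member of the lists other than the neurotransmitter receptors and cytochrome P450 enzymes fell. After quantile normalization 16 olfactory receptors, 9 proteases, 8 keratins, 2 beta-defensins, 7 ion channels and 1 neurotransmitter receptor were higher. The olfactory receptor gene Or2y1g lay at 6.56, 6.74 and 7.05 against 6.18, 6.38 and 6.57, just overlapping (0.39, SE 0.08), and Krt86 at 6.21 to 6.74 against 6.04 to 6.24 (0.38, SE 0.08). With the spread as a covariate the medians of the olfactory receptor, keratin, defensin and protease lists were -0.04, -0.06, -0.06 and -0.03. Without supplemented replicate 2, 5 or regular replicate 1, 24, 24 and 25 olfactory receptors, 7, 8 and 8 ion channels, 2, 4 and 2 neurotransmitter receptors, and 8, 9 and 8 proteases were higher. Without regular replicate 2 there were 5 neurotransmitter receptors and 9 proteases, and without regular replicate 3 there were 9 ion channels. These members passed the filter at low levels, where rises were common. In the dimmest 20% of genes 18.2% rose, and in the next 20% 17.4%. Median levels were 5.75 for olfactory receptors, 5.80 for neurotransmitter receptors, 6.01 for beta-defensins, 6.20 for keratins and 6.27 for proteases.

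Promoter sequence was set beside the groups. RefSeq promoters of GRCr8 matched 9024 of the 10879 tested genes, and the 250 bases before each start were searched on both strands; a match is a description of letters only. The CCAAT box (CCAAT) was in 35.5% of all promoters, in 39.2% of those of genes that fell and 31.6% of those that rose. It was in 24 of 26 promoters of all tested histone genes (92.3%) and in all 16 of those called, in 19 of 21 of endoplasmic reticulum chaperones (90.5%) and 13 of 14 of those called, and in 25 of 34 of mitosis genes (73.5%) and 17 of 21 of those called. Cholesterol synthesis promoters held it in 13 of 16 (81.2%) and in 6 of 7 of those called. These letters were thus common in these lists as a whole, called or not. The cell cycle homology region (TTTGAA) was in 10.8% of all promoters, in 15 of the same 34 mitosis promoters (44.1%) and in 11 of the 21 called. The same letters were in 38.5% of histone promoters, 36.0% of olfactory receptor promoters and 22.2% of those of mitochondrial ribosomal proteins, so they are not particular to mitosis genes. The ETS factor site (CCGGAAGT) was in 6.36% of all promoters, 11.1% of those of genes that fell and 2.48% of those that rose, in 12 of 36 of ribosome biogenesis genes (33.3%) and in 9 of 29 of those called (31.0%). Within the brightest 20% of genes it was in 11.8% of promoters of genes that fell and 8.01% of those not called. The cyclic AMP response element (TGACGTCA) was in 2.69% of all promoters in 5 of 29 of immediate early genes and in 4 of 12 of those called. The 6-letter element of the vitamin D receptor (AGGTCA) was in 11.4% of all promoters. It was in 10.8% of those of genes that fell and 13.5% of those that rose. Within the brightest 20% of genes it was in 11.6% of promoters of genes that fell and 7.36% of those not called. Within the dimmest 20% it was in 15.6% of those that rose and 13.7% of those not called. Among the whole gene lists searched its share ran from 4.76% (endoplasmic reticulum chaperones) to 27.8% (ribosome biogenesis). The whole element was not searched for, and no match or mismatch of 6 letters shows binding of the receptor.

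The 120 bases before the start are shown for 1 member each of the mitosis, histone, endoplasmic reticulum chaperone, ribosome biogenesis and immediate early lists. Shown is the called member with the smallest p whose window holds the letters marked for its list, so that their position can be seen. Capitals mark the CCAAT box in Top2a, H1f4 and Calr (as ATTGG where it lies on the other strand), the cell cycle homology region in Top2a as well (TTCAAA, on the other strand), the ETS site in Nhp2 and the cyclic AMP response element in Ppp1r15a, whose product restarts translation after stress (-0.44, SE 0.14). Each is read 5′ to 3′ along the strand of the gene from RefSeq GRCr8: Top2a at chr10:84473094-84473213 (minus strand), H1f4 at chr17:41914305-41914424 (plus), Calr at chr19:40213247-40213366 (plus), Nhp2 at chr10:36377900-36378019 (plus) and Ppp1r15a at chr1:105139597-105139716 (minus). All 5 windows lie outside the transcript, directly before its first base.
Top2a: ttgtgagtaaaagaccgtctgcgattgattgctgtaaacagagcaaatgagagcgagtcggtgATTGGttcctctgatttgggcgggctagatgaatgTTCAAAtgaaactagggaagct
H1f4: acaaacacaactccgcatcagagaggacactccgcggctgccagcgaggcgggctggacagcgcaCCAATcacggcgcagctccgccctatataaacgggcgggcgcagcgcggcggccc
Calr: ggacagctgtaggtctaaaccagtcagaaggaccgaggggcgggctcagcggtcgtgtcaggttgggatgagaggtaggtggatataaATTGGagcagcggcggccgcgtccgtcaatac
Nhp2: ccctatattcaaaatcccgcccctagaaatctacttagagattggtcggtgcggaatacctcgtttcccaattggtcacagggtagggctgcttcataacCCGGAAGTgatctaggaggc
Ppp1r15a: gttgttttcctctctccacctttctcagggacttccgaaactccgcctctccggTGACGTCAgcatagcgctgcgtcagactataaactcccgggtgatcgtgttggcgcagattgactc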

How the data were processed

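RNA of sorted CD4+ T cells was measured on 17 rat whole-transcript gene arrays, of which the 12 of the supplemented and regular diets are compared. The authors deposited log2 values per transcript cluster; per the submitters' processing notes these come from RMA in Partek 6.0, and the range of the values fits base 2, which no source states. No batch of hybridization or scanning was known. Of 29214 clusters, 15310 carry 1 gene symbol in the platform annotation, 323 several and 13581 are not listed. Each of 14506 genes was represented by its brightest cluster over all arrays, and the dimmest 25% were left out, which left 10879.

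All 17 arrays entered 1 limma fit with a mean per diet (version 3.58.1, R 4.3.3, 14 residual and 8.19 prior degrees of freedom). Its p-values were adjusted with Benjamini-Hochberg over all genes, with a threshold of 0.05. The fit was also run on simulated data with independent genes and no added difference in array spread. That run cannot test the calls against such a difference. Named genes are the 15 largest rises and falls, the 3 members of each list with the smallest p, members of families of at most 10 tested genes, and fixed T cell and vitamin D genes; exceptions are marked. Members and lists were chosen with earlier results of these data known, so lists are described by counts beside the shares over all genes, with no test. Mki67 and some other fixed genes are not reported here. The number of arrays limits the precision.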

Additional observations from a re-analysis of the deposited data

Results flagged for a closer look

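Among 134 named genes and the array spread, in each of 2 diets, 6 of 270 groups of 6 arrays held 1 array far from the other 5, where chance gives about 1 in 20. Supplemented replicate 3 was the highest for the replication clamp gene Pcna, at 10.26, and for the antiproliferative gene Tob1, at 7.18. Supplemented replicate 5 was the lowest for the class I gene RT1-CE5, at 8.94. Supplemented replicate 2 was the highest for Vdr, at 5.78. Regular replicate 4 was the highest for Il9, at 6.35, and regular replicate 1 for Tnfsf10, at 6.67.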

How the results depend on the processing

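The spread difference between the diets stayed between -0.0889 and -0.0756 when each of the 12 arrays was left out, and had an exact permutation p = 0.00216 in each of those cases and over the tested genes or as an interquartile range. The count of 3661 genes ran from 2936 (without regular replicate 1) to 4035 (without supplemented replicate 3) with 1 array left out. It was 2777 after quantile normalization, 2690 after cyclic loess and 3655 after median centring. It moved by more than 1.5 times in 4 cases: 0 with the array spread as a covariate, 488 with the macrophage marker mean as a covariate, 2171 without supplemented replicates 2 and 5, and 6901 over all transcript clusters, where more features are tested. The cause of the other 3 was not tested. Replicate numbers did not pair the arrays: the correlations of deviations between same-numbered arrays ran from -0.119 to 0.133 and no array correlated best with its own number. With the replicate number as a block 3023 genes were called. Apart from fixed genes, small families and marked exceptions, named genes were picked for a large change or a small p in the main fit. Their counts therefore do not stand for all genes called. Of 117 named genes called, 102 kept the call after quantile normalization, 110 after median centring, 113 with the block, 64 with the macrophage marker mean and 0 with the spread covariate, and in all of these but the last none turned direction. With the spread covariate the fitted change turned sign in 9, each with an adjusted p above the threshold: Cd3e (0.01), Ccdc107 (0.25), Egr1 (0.18), Ifngr1 (0.04), Il13 (-0.10), Il9 (-0.04), Stat3 (0.00), Tnfsf12 (-0.05) and Cyp27b1 (-0.01). Medians of 12 of 63 lists of at least 6 members, cell type markers left out, changed sign after quantile normalization and 27 with the spread covariate. Leaving out 1 array moved 10 of 49 list counts of at least 5 by more than 1.5 times. Signal near background limits genes such as Vdr and Cyp24a1.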
